A study of Homo sapiens with 16 samples.

Results

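The response of HepG2 cells to the loss of histidine was measured here in the presence of PD98059, an inhibitor of the kinases MEK1 and MEK2. HepG2 is an established human hepatoma line that keeps many hepatocyte genes active, and histidine is an amino acid that these cells take from their medium. The arrays were chosen by sample title: 4 arrays of cells without histidine in the presence of PD98059 were set against 4 arrays of cells in complete medium (DMEM) in the presence of PD98059, 8 of the 16 arrays of the series, over all 22464 named genes. Both groups received 2.5 uM PD98059 for 1 h before the change of medium and kept it through the 8 h that followed, so the control cells of this comparison carried the inhibitor too. The unit of the dose differs between the sample labels and the protocol text, and that of the protocol, uM, was used because the other would follow from a lost micro sign. The other 8 arrays, from cells given the solvent DMSO in place of PD98059, in complete medium or without histidine, served only to test where the response differed. Each array came from its own incubation of this 1 line, so the errors below describe the spread between incubations and not between donors. Nothing in these values measures the activity of MEK or ERK, so how far the kinases were inhibited is not shown by them.

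When an amino acid runs short, uncharged transfer RNA activates the kinase GCN2, which phosphorylates the initiation factor eIF2. General translation then slows while the messenger RNA of the transcription factor ATF4 is translated better. ATF4 and its partners of the C/EBP family switch on genes for amino acid synthesis, uptake and tRNA charging, together with stress effectors such as CHOP. MEK stands one step above the kinases ERK1 and ERK2, whose targets include the immediate-early genes and the feedback regulators of the DUSP, SPRY and SPRED families.

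Values are log2 expression values that the authors had normalized with RMA, 1 value per gene and array, and a difference is the mean without histidine minus the mean in complete medium, with the standard error of the fit after the ± sign. A gene was called, and is said to have risen or fallen, when its adjusted p in limma was under 0.05 over all 22464 genes. Where the responses with PD98059 and with DMSO are compared, higher or lower under PD98059 refers to the response and not the level. Counts of list members stand against the shares of all genes. Under PD98059 12% of all genes rose and 15.3% fell, and with DMSO 14.8% and 18.4%. The response was called higher under PD98059 for 2.91% of all genes and lower for 2.83%. Genes were named by a fixed rule, given with the processing, and a gene outside it is named as an exception or for its size, after its value was seen. One array stood apart. Replicate 3 of the cells without histidine had a root mean square deviation of 0.111 from its group mean, where the 15 other arrays had 0.0496 to 0.0760. Many results that change without it are followed by their value without it. Other counts can also move without it, and are given as they stood with all arrays. Of 12 hepatocyte markers, 10 were measured, and all 10 lay above the median of all values, at mean levels of 8.38 to 13.63. That median, 6.22, is over all 70459 rows, and 15548 of the 22464 named genes lay above it. Such a place is therefore common and does not show by itself that a marker is well expressed. Of the 14 measured markers of blood, vascular, connective tissue and other cells, 10 also lay above that median, PTPRC and DCN were low at 3.92 and 3.91, 1 rose (PDGFRB, by 0.29) and 1 fell (ACTA2, by 0.12, with 2 lower without the array that stood apart). The mean level over these 14 markers was 6.87 to 6.91 on the arrays in complete medium and 6.86 to 6.997 on those without histidine, and its part in the results below was not tested. In cultures measured in bulk, fewer cells of a state and less RNA per cell cannot be told apart.

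The transcripts of the kinases that PD98059 acts on were not called. MAP2K1, which encodes MEK1, was at 9.44, 9.41, 9.35 and 9.32 in complete medium and at 9.36, 9.37, 9.29 and 9.31 without histidine, a difference of -0.04 ± 0.032 (adjusted p = 0.398). MAP2K2, which encodes MEK2, differed by -0.07 ± 0.038 (adjusted p = 0.197), and by -0.10 without the array that stood apart (adjusted p = 0.0361). The arrays of both genes overlapped between the media.

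Depletion under PD98059 changed 6148 genes (27.4% of those tested), 2701 higher (12%) and 3447 lower (15.3%). Most changes were small: the median size was 0.20 among the genes that rose and 0.18 among those that fell. At least 1.5-fold changes were seen in 147 genes that rose (0.654% of all) and 70 that fell (0.312%). Of the 147, 111 rose by 1.5-fold to 2-fold, 35 by 2-fold to 4-fold and 1, EGR1, by more than 4-fold. Of the 70, 62 fell by 1.5-fold to 2-fold and 8 by 2-fold to 4-fold. The arrays of the 2 media did not overlap for 5641 genes (25.1%), among them all 147 and all 70. Most genes named below were picked among called genes by a low p. A lack of overlap given for them therefore comes largely with that choice and tests nothing. Leaving out the array that stood apart gave 3050 genes higher and 3780 lower, kept 94.0% of the higher and 93.0% of the lower calls, and kept every call of at least 1.5-fold.

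The steepest rise was that of EGR1, an immediate-early zinc finger transcription factor. It stood at 6.82, 6.75, 6.81 and 6.77 in complete medium and at 8.73, 8.93, 8.81 and 8.87 without histidine, a rise of 2.05 ± 0.048 (4.14-fold, adjusted p = 1.39e-13). CCL20, a chemokine gene, went from 7.88, 7.87, 7.52 and 7.72 to 9.33, 9.74, 9.50 and 9.67, a rise of 1.81 ± 0.088 (adjusted p = 2.47e-10), with the widest spread among the 12 genes of the highest rise. ANKRD1, an ankyrin repeat gene that is a common readout of YAP, was at 9.47, 9.33, 9.29 and 9.26 and then at 11.11, 11.26, 11.08 and 11.16, a rise of 1.81 ± 0.043 (adjusted p = 1.39e-13). In all 3 genes every array without histidine was above every array in complete medium, but the naming rule required such a lack of overlap of all 12. The rest of the 12 were SLC7A11, ASNS, ARRDC4, DUSP6, DDIT3, KDM7A, INHBE, CCAT1 and DDIT4, with rises from 1.36 to 1.71. Among them KDM7A encodes a histone demethylase (1.48 ± 0.061) and CCAT1 a long non-coding RNA (1.37 ± 0.053).

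At the other end, HSPA1A, an inducible chaperone of the HSP70 family, was at 11.20, 11.36, 11.33 and 11.36 in complete medium and at 9.84, 9.68, 9.78 and 9.67 without histidine. It fell by 1.57 ± 0.042 (adjusted p = 4.27e-13), the largest fall among the genes named here, and its 4 rows in the table differed by -1.59 to -1.57. The probes may also read its nearly identical copy, so the value belongs to the pair. HMGCS1, the synthase that makes HMG-CoA for cholesterol synthesis, was next, at 11.27, 11.24, 11.27 and 11.25 and then at 9.98, 10.06, 9.83 and 9.995, and fell by 1.29 ± 0.036 (adjusted p = 6.17e-13). Of the 12 lowest genes that met the naming rule, 7 belong to sterol metabolism or are a copy of such a gene: HMGCS1, HSD17B7, its pseudogene HSD17B7P2, LSS, IDI1, MSMO1 and STARD4. The remaining ones were NDRG1, a stress and hypoxia gene (-1.08 ± 0.038), MED31, a subunit of the Mediator complex (-0.99 ± 0.055), CENPI, a centromere protein (-0.98 ± 0.062), and SLCO4C1, an organic anion transporter (-0.92 ± 0.089). Replicate 3 was the lowest array without histidine for 9 of the 12, and not for LSS, HSPA1A and NDRG1.

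**Figure D1:**
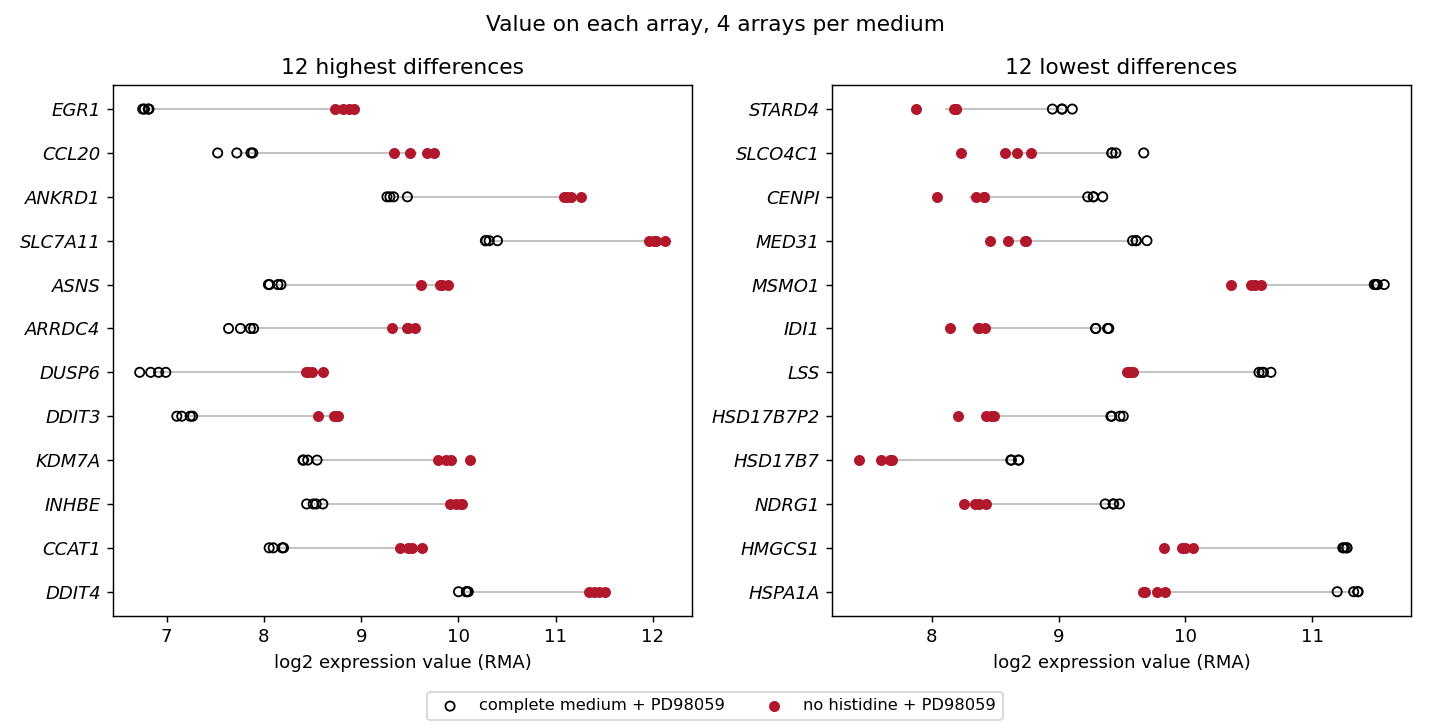
Log2 expression value (horizontal axis) of the 12 genes with the highest and the 12 with the lowest difference that met the naming rule, 1 point per array, with open circles for 4 arrays in complete medium and filled circles for 4 arrays without histidine, all with PD98059, and a grey line between the group means. Groups without overlap were required by the naming rule for these 24 genes. The lowest filled point of CENPI, at 8.04, and of STARD4, at 7.87, are replicate 3.

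Amino acid response regulators moved almost as a block. Of 23 measured members, 22 rose and 1 fell, where 12% of all genes rose and 15.3% fell, and their median difference was 0.69 against 0.0032 over all genes. DDIT3, which encodes CHOP, was at 7.24, 7.27, 7.10 and 7.15 in complete medium and at 8.72, 8.76, 8.56 and 8.75 without histidine, and rose by 1.51 ± 0.044 (adjusted p = 9.35e-13). SESN2, a leucine-binding inhibitor of mTORC1 signalling, went from 9.56, 9.66, 9.58 and 9.63 to 10.81, 10.94, 10.96 and 10.86, a rise of 1.29 ± 0.038 (adjusted p = 9.35e-13). VEGFA, the vascular growth factor and a known ATF4 target, went from 9.22, 9.25, 9.21 and 9.19 to 10.11, 10.16, 10.13 and 10.11, a rise of 0.91 ± 0.023 (adjusted p = 2.27e-13). The 3 genes had no overlap between the media, and VEGFA had the tightest arrays of the 3. DDIT4, another brake on mTORC1, rose by 1.36 ± 0.044, from 10.000, 10.10, 10.08 and 10.08 to 11.34, 11.45, 11.50 and 11.40. Chosen after their values were seen, the transcript of ATF4 itself rose by 0.16 ± 0.026, the pseudokinase gene TRIB3 by 0.85 ± 0.042, and the ATF4 partner CEBPG by 0.94 ± 0.030. The 1 member that fell was KLHL24, an adaptor of a ubiquitin ligase, at -0.20 ± 0.046. With DMSO 22 of the 23 rose and 0 fell, with a median of 0.90 (14.8% of all genes rose and 18.4% fell with DMSO).

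Many regulators responded less with the inhibitor. The difference of the responses was called for 15 of 23, all 15 lower under PD98059, where 2.83% of all genes were lower and 2.91% higher. Without the array that stood apart it was called for 17, all lower, where 6.22% of all genes were lower. SESN2 rose by 1.96 with DMSO, and its responses differed by -0.67 ± 0.054 (adjusted p = 1.53e-06). DDIT4 rose by 1.87 with DMSO, and its responses differed by -0.52 ± 0.062 (adjusted p = 9.95e-05). For DDIT3, which rose by 1.42 with DMSO, the responses differed by 0.09 ± 0.062, which was not called (adjusted p = 0.556). For VEGFA the difference was -0.11 ± 0.033 (adjusted p = 0.0746), and it was called without the array that stood apart (-0.11, adjusted p = 0.0374). Named for their size, PPP1R15A, which encodes a phosphatase subunit that reverses eIF2 phosphorylation, rose by 0.82 against 1.65 with DMSO, and ATF3 by 0.63 against 1.18. Their responses differed by -0.83 ± 0.077 and -0.56 ± 0.064.

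Genes that make, import and attach amino acids rose as well, with a larger share of exceptions. Of 14 measured enzymes of amino acid synthesis and one-carbon metabolism, 11 rose (78.6%, against 12% of all genes). Another 2 fell (14.3%, near the 15.3% of all genes), and the median was 0.47. ASNS, asparagine synthetase, was at 8.17, 8.14, 8.05 and 8.06 in complete medium and at 9.81, 9.89, 9.61 and 9.83 without histidine, a rise of 1.68 ± 0.048 (3.21-fold). MTHFD2, a mitochondrial folate enzyme, went from 10.03, 9.99, 9.96 and 9.95 to 11.14, 11.19, 11.07 and 11.14 (1.15 ± 0.029), and PCK2, the mitochondrial form of phosphoenolpyruvate carboxykinase, from 10.12, 10.17, 10.13 and 10.12 to 11.02, 11.07, 11.09 and 11.04 (0.92 ± 0.028). None of the 3 overlapped. The 2 that fell, named for that reason, were GLUL, glutamine synthetase (-0.46 ± 0.023), and ALDH18A1, the first enzyme of proline synthesis (-0.34 ± 0.028). PYCR1, the last enzyme of that route, was at 0.08 and not called.

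Of 24 amino acid transporters, 15 rose (62.5%, against 12% of all genes) and 5 fell (20.8%, against 15.3%), with a median of 0.13. SLC7A11, the cystine and glutamate exchanger, was at 10.40, 10.32, 10.28 and 10.28 and rose to 12.03, 12.13, 11.96 and 12.01, by 1.71 ± 0.034 (3.28-fold, adjusted p = 2.85e-14). SLC7A1, the cationic amino acid carrier CAT1, went from 9.86, 9.86, 9.74 and 9.75 to 10.68, 10.77, 10.77 and 10.69, a rise of 0.93 ± 0.039. SLC43A1, a carrier of large neutral amino acids, went from 11.04, 11.13, 11.10 and 11.09 to 11.69, 11.73, 11.76 and 11.69, a rise of 0.63 ± 0.026. Each of these carriers had all arrays without histidine above all arrays in complete medium, but they were picked for their low adjusted p. The 5 that fell were small in size, from -0.12 to -0.29, and were SLC38A7, SLC38A4, SLC38A5, SLC36A1 and SLC36A4, which include proton-coupled and sodium-coupled carriers. SLC38A9 and SLC15A4, carriers of the lysosomal membrane, the second of which transports histidine, were at 0.08 and 0.05 and were not called. SLC38A9 was called higher without the array that stood apart (0.13, adjusted p = 0.000981).

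Of 19 cytosolic aminoacyl-tRNA synthetases, which charge tRNA, 12 rose (63.2%), 3 fell (15.8%) and 4 were not called (median 0.30). The share that fell was near the 15.3% of all genes. AARS1, for alanine, went from 11.41, 11.45, 11.47 and 11.42 to 12.08, 12.12, 12.09 and 12.06 (0.65 ± 0.022), MARS1, for methionine, rose by 0.71 ± 0.024, and WARS1, for tryptophan, by 0.50 ± 0.020. The 3 that fell were KARS1 (-0.11), QARS1 (-0.16) and RARS1 (-0.19), for lysine, glutamine and arginine. HARS1, the enzyme for the missing amino acid, was at 0.06 ± 0.026 and was not called (adjusted p = 0.137), as were VARS1, FARSA and FARSB. Of 16 mitochondrial synthetases only MARS2, for methionine, rose (0.37 ± 0.031), while 7 fell (median -0.10), among them RARS2 (-0.24 ± 0.042) and AARS2 (-0.15 ± 0.026). HARS2, the mitochondrial histidine enzyme, was at 0.01. Of 9 genes that degrade or modify histidine, 1 rose and 1 fell (11.1% each, near the 12% and 15.3% of all genes), and 2 fell without the array that stood apart. FTCD, which handles a late intermediate of histidine breakdown, fell by 0.21 ± 0.033, and HNMT, which methylates histamine, rose by 0.11 ± 0.035 (adjusted p = 0.0256) with overlapping arrays and with adjusted p-values of 0.0705 to 0.0895 when 1 of 4 arrays was left out (replicates 3 and 4 in complete medium, 2 and 4 without histidine). The count of rising members was then 0, and it was 2 without replicate 2 in complete medium, with PD98059 or with DMSO. HAL, the enzyme that starts histidine breakdown, was at 0.02 and not called.

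The promoters of these groups were read for the C/EBP-ATF element, the composite site bound by ATF4 with a C/EBP partner, as the letters TGATGNAA on either strand within 250 bases before to 50 bases after each RefSeq gene start of build GRCh38.p14. The element was found in 3.62% of all 35116 such windows. It was present in 6 of 29 windows of the regulators (6 of 19 genes with a window), 2 of 14 of the synthesis enzymes, 5 of 39 of the transporters and 7 of 21 of the cytosolic synthetases. All 20 genes with a match rose under PD98059, with a median of 0.55 and a range from 0.23 to 1.68. Of the 45 genes of these groups with a window and no match, 28 rose and 11 fell, with a median of 0.18. The groups were chosen with earlier results of these data known and most of their members rose, so the split describes them and tests nothing. How genes with a match outside these groups responded was not tested. A match is a run of letters and does not show that a factor binds there. Among the regulators, synthesis enzymes and transporters with the whole element before the start, the 3 with the lowest adjusted p are printed, to show the element in its surroundings. Each is 60 bases on the strand of the gene, 5′ to 3′, with the element in capitals, from RefSeq build GRCh38.p14.
ASNS (chr7:97872443-97872502, minus strand, element 68 to 61 bases before the start): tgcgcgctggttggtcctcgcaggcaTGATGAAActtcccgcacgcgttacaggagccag
CEBPG (chr19:33374045-33374104, plus strand, element 42 to 35 bases before the start): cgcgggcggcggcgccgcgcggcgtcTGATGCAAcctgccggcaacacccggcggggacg
SLC1A5 (chr19:46784878-46784937, minus strand, element 97 to 90 bases before the start): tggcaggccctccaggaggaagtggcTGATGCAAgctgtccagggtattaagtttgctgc
ASNS reads TGATGAAA, whereas CEBPG and SLC1A5, a neutral amino acid carrier that rose by 0.74 ± 0.034, both read TGATGCAA.

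Translation and ribosome genes changed little. Of 26 initiation and elongation factors, 6 rose (23.1%, against 12% of all genes) and 3 fell (11.5%, near the 15.3% of all genes), with a median of 0.01. EIF1, a start codon selection factor, rose by 0.37 ± 0.028 and EIF5, the GTPase activator of the initiation complex, by 0.24 ± 0.024, while EIF4EBP2, a repressor of cap-dependent initiation, fell by 0.21 ± 0.023. Of 47 cytosolic ribosomal proteins, 0 rose and 12 fell, with a median of -0.04, and the steepest fall was RPL24 at -0.25 ± 0.032. The median was -0.02 after another quantile normalization, where 1 member rose. Ribosome assembly genes went the other way, with 13 of 23 higher, 1 lower and a median of 0.14. DDX21, a nucleolar RNA helicase, went from 10.80, 10.72, 10.75 and 10.72 to 11.29, 11.33, 11.14 and 11.24 (0.50 ± 0.035), NOP16 rose by 0.32 ± 0.025 and NOP2 by 0.26 ± 0.024. All 3 measured host genes of small nucleolar RNAs rose, SNHG8 by 1.00 ± 0.039, SNHG17 by 0.90 ± 0.061 and EPB41L4A-AS1 by 0.40 ± 0.034. Such spliced host RNAs end in nonsense-mediated decay when they are translated.

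**Figure D2:**
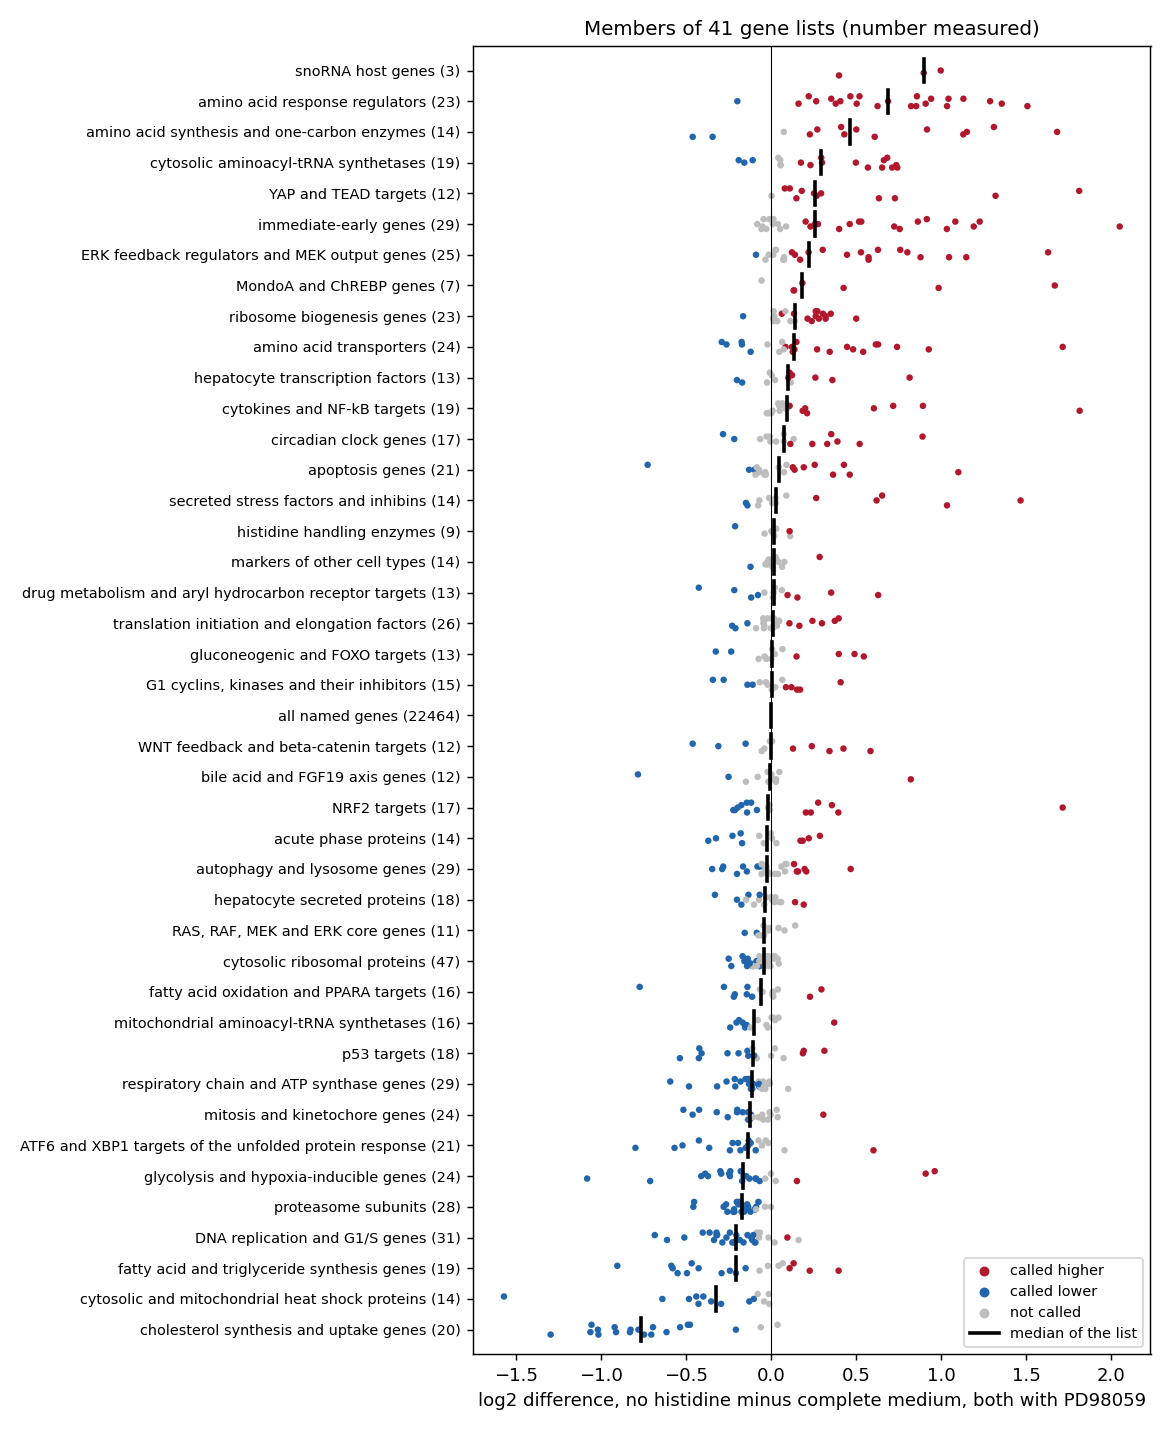
Log2 difference without histidine minus complete medium, both with PD98059 (horizontal axis), of each measured member of 41 gene lists and, for all named genes, the median alone. Each point is a gene, red where it rose, blue where it fell and grey where it was not called, and black bars are list medians, which run from -0.76 for cholesterol genes to 0.90 for the 3 snoRNA host genes.

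Immediate-early genes still rose in the presence of PD98059. Of 29, 17 rose and 0 fell (median 0.26), where 12% of all genes rose. KLF10, a TGF-beta inducible zinc finger factor, was at 8.44, 8.47, 8.41 and 8.49 in complete medium and at 9.45, 9.57, 9.56 and 9.57 without histidine, a rise of 1.08 ± 0.032. MYC went from 10.64, 10.73, 10.65 and 10.69 to 11.47, 11.55, 11.56 and 11.59, a rise of 0.86 ± 0.028. Neither gene overlapped between the media. Among members named after their values were seen, JUN rose by 1.03 ± 0.038, JUNB by 1.19 ± 0.059 and FOS by 0.20 ± 0.042, and the NR4A1, NR4A2 and NR4A3 receptors were at -0.04, -0.03 and -0.05 and were not called.

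Of the 41 lists, the immediate-early genes had the largest gap between the medians of the 2 arms, 0.26 under PD98059 against 0.75 with DMSO, where 22 members rose and 1 fell. Taken gene by gene, their median difference of responses was smaller in size, at -0.20. It was -0.24 for the amino acid response regulators, so the ranking holds for the gap between medians only. The difference of responses was called for 16 members, 15 lower and 1 higher under PD98059. Without the array that stood apart 20 were lower and 1 higher. EGR1 started at 7.91 and reached 11.43 with DMSO, on the group means, and its responses differed by -1.47 ± 0.067 (adjusted p = 5.34e-09). The rise under PD98059 was thus called smaller. MCL1, which protects cells from apoptosis, went from 10.13, 10.09, 10.05 and 10.02 to 10.53, 10.55, 10.55 and 10.50 under PD98059, a rise of 0.46 ± 0.026 against 1.24 with DMSO, and its responses differed by -0.78 ± 0.037 (adjusted p = 5.34e-09). The difference was not called for MYC, at 0.02 ± 0.040. For KLF10 it was -0.16 ± 0.045 (adjusted p = 0.0574), and it was called without the array that stood apart (-0.16, adjusted p = 0.0317). The 1 member with a higher response under PD98059 was SGK1, a kinase gene that fell with DMSO (-0.63) and was at -0.06 under PD98059.

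Feedback regulators and output genes of the ERK pathway also rose: 16 of 25 rose and 1 fell (median 0.22). DUSP6, the phosphatase that inactivates ERK, was at 6.99, 6.92, 6.72 and 6.83 in complete medium and at 8.43, 8.60, 8.45 and 8.49 without histidine, a rise of 1.63 ± 0.053 (3.09-fold, adjusted p = 2.43e-12). EPHA2, a receptor tyrosine kinase, went from 9.08, 9.17, 9.10 and 9.09 to 10.22, 10.27, 10.31 and 10.23 (1.15 ± 0.029), and SPRY1, a Sprouty inhibitor of receptor signalling, from 8.56, 8.57, 8.56 and 8.54 to 9.52, 9.67, 9.62 and 9.61 (1.05 ± 0.036). No array overlapped between the media in these 3 genes. With DMSO the group means of DUSP6 were 8.56 in complete medium and 9.77 without histidine, and its mean without histidine under PD98059 was 8.49. The last value was not tested against the level in complete medium with DMSO.

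Within this list the difference of responses ran both ways, 6 higher and 7 lower under PD98059, and 6 higher and 10 lower without the array that stood apart. DUSP6 was among those higher, at 0.42 ± 0.076 (adjusted p = 0.00286). The ETS factors followed: ETV5 went from 8.41, 8.35, 8.23 and 8.36 to 9.15, 9.25, 9.22 and 9.23 and rose by 0.88 ± 0.036 against 0.22 with DMSO, with a difference of 0.66 ± 0.050 (adjusted p = 9.86e-07). ETV4 went from 9.56, 9.68, 9.59 and 9.61 to 10.08, 10.18, 10.27 and 10.20 and rose by 0.57 ± 0.035 against 0.11, with a difference of 0.47 ± 0.050. With DMSO the group means in complete medium and without histidine were 9.45 and 9.67 for ETV5 and 10.55 and 10.66 for ETV4. They lay above those under PD98059 in both media, which was not tested. Lower under PD98059 was LIF, a cytokine of the interleukin 6 family, which went from 7.50, 7.56, 7.36 and 7.44 to 7.74, 7.78, 7.79 and 7.78, a rise of 0.30 ± 0.044 against 1.52 with DMSO (-1.21 ± 0.063, adjusted p = 1.24e-08). Named for its size, EREG, which encodes a ligand of the EGF receptor, rose by 0.53 against 1.51, a difference of -0.98 ± 0.082. In the core of the pathway, of 11 RAS, RAF, MEK and ERK genes, 0 rose and 2 (18.2%) fell, near the 15.3% of all genes. The 2 were MAPK3, which encodes ERK1 (-0.15 ± 0.028), and GRB2 (-0.08 ± 0.026), the second with adjusted p-values of 0.0615 to 0.0815 when 1 of 4 arrays was left out (replicates 1 and 2 in complete medium, 2 and 4 without histidine). In each of those fits 1 member fell, 1 rose without replicate 1 in complete medium, and without the array that stood apart 1 rose and 3 fell. The 1 feedback gene that fell lost its call when any 1 of 10 of the 16 arrays was left out.

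Cholesterol synthesis and uptake genes formed the group with the deepest fall. Of 20 measured, 18 fell and 0 rose, where 15.3% of all genes fell, and the median was -0.76. Along the pathway, HMGCS1 fell by 1.29, MVK by 0.78 ± 0.033, IDI1, an isomerase of the isoprenoid steps, by 1.02 ± 0.048, LSS, which closes the sterol rings, by 1.05 ± 0.031, and DHCR7, the last reductase, by 0.82 ± 0.026. LSS was at 10.58, 10.67, 10.60 and 10.62 in complete medium and at 9.56, 9.54, 9.57 and 9.59 without histidine, and DHCR7 went from 12.17, 12.20, 12.14 and 12.16 to 11.35, 11.37, 11.30 and 11.36. Both had arrays that lay close together within a medium and far apart between media. HSD17B7 was at -1.06 ± 0.050 beside its pseudogene HSD17B7P2 at -1.06 ± 0.057, and the probes of such copies may share signal. The 2 members not called were INSIG1, which retains the sterol sensor in the endoplasmic reticulum (-0.06, and called lower at -0.10 without the array that stood apart), and PMVK (0.04). The gene of the master regulator itself, SREBF2, fell by 0.21 ± 0.031.

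With DMSO 17 of the 20 fell and 0 rose, with a median of -0.72, and limma called the difference of responses for 0 of the 20 (5 at an unadjusted p under 0.05). Without the array that stood apart it was called for 4, higher under PD98059 for 3, HSD17B7 (0.23, adjusted p = 0.00865), MSMO1 (0.16, adjusted p = 0.0238) and ACAT2, and lower for SREBF2. In that fit 7.78% of all genes were called higher and 6.22% lower. For HMGCS1 the difference was -0.07 ± 0.051, for LSS 0.05 ± 0.044 and for DHCR7 0.09 ± 0.036. The sterol element, searched as TCACNCCAC on either strand in the same promoter windows, was found in 1.13% of all windows and in 1 of 23 windows of this list, that of SREBF2. That stretch is printed as the only match in the list, and SREBF2 itself encodes a factor that binds such elements.
SREBF2 (chr22:41832946-41833005, plus strand, element 133 to 125 bases before the start): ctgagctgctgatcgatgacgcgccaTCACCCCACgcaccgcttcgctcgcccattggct
Fatty acid and triglyceride genes followed in part, with 11 of 19 lower and 4 higher (median -0.21). ACSS2, which makes acetyl-CoA from acetate, went from 9.48, 9.54, 9.44 and 9.43 to 8.60, 8.56, 8.55 and 8.56 (-0.90 ± 0.033), FADS2, a desaturase, fell by 0.47 ± 0.021 and ACLY, ATP citrate lyase, by 0.42 ± 0.022. The 4 that rose were GPAM (0.40), DGAT2 (0.23), MLXIPL (0.13) and SREBF1 (0.11), and the count was 2 without the array that stood apart, where MLXIPL and SREBF1 lost the call, and also 2 without replicate 1 in complete medium or replicate 4 without histidine. In the list of fatty acid oxidation and PPARA targets, 7 of 16 fell and 2 rose (12.5%, near the 12% of all genes), with a median of -0.06. FABP1, the liver fatty acid binding protein, was at 8.09, 8.03, 7.91 and 7.98 and fell to 7.28, 7.27, 7.11 and 7.28, by 0.77 ± 0.063, PPARA itself fell by 0.28 ± 0.024, and ACSL1, an acyl-CoA synthetase, rose by 0.30 ± 0.030.

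**Figure D3:**
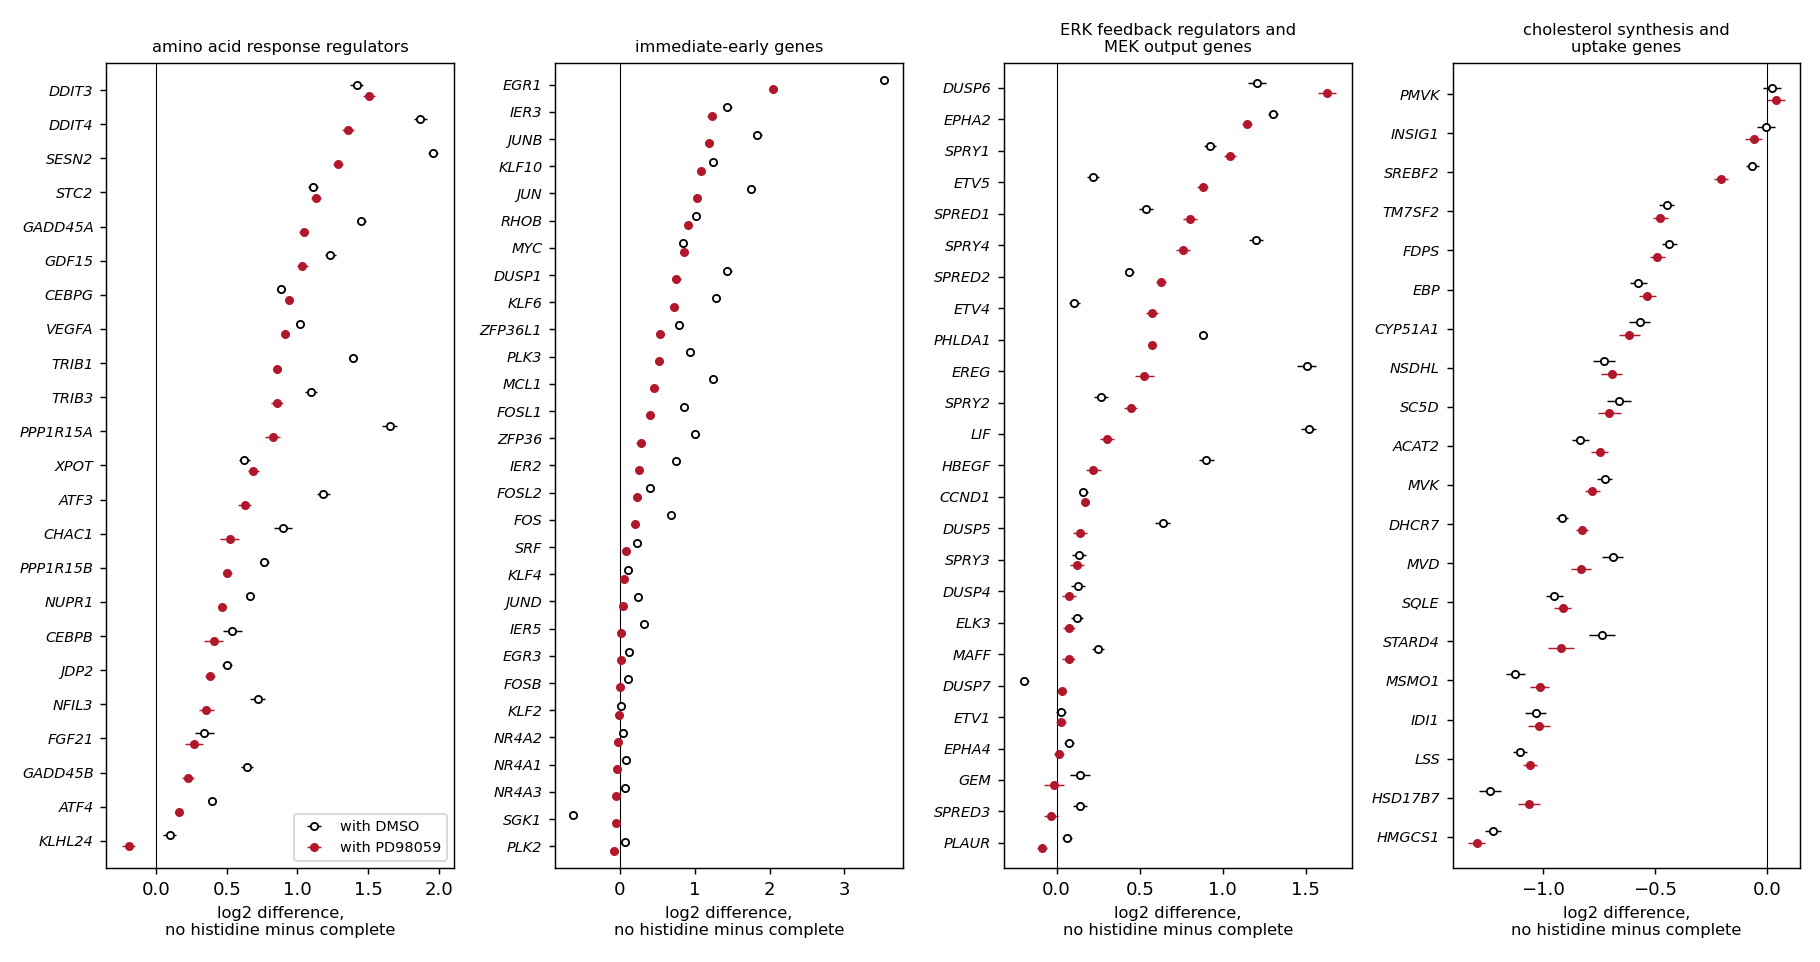
Log2 difference without histidine minus complete medium (horizontal axis, a separate scale in each panel) of every measured member of 4 lists, with filled red points for PD98059 and open points for DMSO, and bars for the standard error of the fit. Red points lie left of the open ones for most immediate-early genes, on both sides for ERK feedback genes, and near them for cholesterol genes.

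Protein folding and degradation genes fell. Among 21 targets of ATF6 and XBP1, the branches of the unfolded protein response that ATF4 does not serve, 15 fell and 1 rose (median -0.14), where 2 rose without replicate 1 in complete medium, with the array that stood apart left out, or without replicate 2 in complete medium with DMSO. SEC24D, a coat protein of vesicles leaving the endoplasmic reticulum, went from 9.47, 9.43, 9.39 and 9.42 to 8.75, 8.66, 8.47 and 8.64 and fell by 0.80 ± 0.044, and SEC61B, a subunit of the translocon, fell by 0.52 ± 0.031. XBP1 itself rose from 11.11, 11.07, 11.04 and 11.07 to 11.70, 11.71, 11.63 and 11.67, by 0.60 ± 0.027 against 0.39 with DMSO, and its responses differed by 0.21 ± 0.038 (adjusted p = 0.0028). HSPA5, the chaperone BiP, chosen after its value was seen, fell by 0.42 ± 0.030. Of 14 cytosolic and mitochondrial heat shock proteins, 10 fell and 0 rose (median -0.32), with HSPA1A as above, DNAJA1, a cochaperone, at -0.64 ± 0.029, and HSPE1, the mitochondrial cochaperonin, at -0.48 ± 0.028. HSF1, the heat shock transcription factor, was at -0.01 and not called. Proteasome subunits fell in 24 of 28 and rose in 0 (median -0.17). PSMD1 fell by 0.45 ± 0.037, PSMC4 by 0.28 ± 0.026 and PSMD2 by 0.26 ± 0.024. The single falls were small, and what was shared was their direction. Respiratory chain and ATP synthase genes also fell, with 19 of 29 lower, 0 higher and a median of -0.11. The 3 with the lowest adjusted p were all subunits of complex I, NDUFB3 (8.77, 8.76, 8.75 and 8.72, then 8.30, 8.28, 8.24 and 8.25, -0.48 ± 0.025), NDUFA2 (-0.59 ± 0.042) and NDUFA1 (-0.32 ± 0.035). Only 11 members fell when the fit held just the 8 arrays of this comparison, and 1 rose without replicate 1 in complete medium or the array that stood apart.

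DNA replication and G1/S genes fell in 24 of 31 and rose in 1 (median -0.20). FEN1, a flap endonuclease of lagging strand synthesis, went from 9.41, 9.40, 9.35 and 9.38 to 8.82, 8.79, 8.73 and 8.75 (-0.61 ± 0.033), and MCM2, a subunit of the replicative helicase, from 10.19, 10.27, 10.28 and 10.30 to 9.73, 9.77, 9.77 and 9.74 (-0.51 ± 0.028). MCM4 fell by 0.32 ± 0.023, with all 4 arrays without histidine between 10.34 and 10.41 and all 4 in complete medium between 10.69 and 10.71. The member that rose was CDC45 (0.10). That count was 2 without replicate 1 in complete medium or the array that stood apart, and 0 without replicate 3 in complete medium. With DMSO 25 fell and 0 rose, with a median of -0.36, where 18.4% and 14.8% of all genes did. The difference of responses was called for 11 members, all higher under PD98059, where 2.91% of all genes were higher. For members that fell in both arms a higher response is a smaller fall. Without the array that stood apart the difference was called for 18, all higher, where 7.78% of all genes were higher. POLA2, a subunit of the primase complex, named for its size, fell by 0.22 under PD98059 and by 0.59 with DMSO, a difference of 0.37 ± 0.047. Mitosis and kinetochore genes fell in 13 of 24 and rose in 1 (median -0.12), with KIF20A at -0.51 ± 0.031, AURKB, the mitotic kinase, at -0.46 ± 0.035, and BUB1, of the spindle checkpoint, at -0.42 ± 0.045. The 1 that rose was NDC80, a kinetochore subunit (0.31), and 2 rose without the array that stood apart.

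Among 15 cyclins, kinases and inhibitors of G1, 5 rose (33.3%) and 4 fell (26.7%), but 3 rose without replicate 1 in complete medium or replicate 2 without histidine, and 2 rose without replicate 4 in complete medium. CDKN1B, the inhibitor p27, rose by 0.41 ± 0.026, CDK2 fell by 0.28 ± 0.028 and CCND1, cyclin D1 and an ERK output gene, rose by 0.17 ± 0.026. Targets of p53 fell in 10 of 18 and rose in 3 (median -0.10): DDB2, a DNA damage binding protein, fell by 0.42 ± 0.029, TP53INP1 by 0.42 ± 0.032, and SESN1, a relative of SESN2, by 0.53 ± 0.052. SESN2 and SESN1 thus went in opposite directions. Of 21 apoptosis genes, 8 rose (38.1%) and 3 fell (14.3%, near the 15.3% of all genes). Without the array that stood apart 9 rose and 7 fell. PMAIP1, the BH3-only protein NOXA, which promotes apoptosis, went from 7.33, 7.26, 7.43 and 7.35 to 8.52, 8.49, 8.30 and 8.47 (1.10 ± 0.054). TNFRSF10D, a decoy receptor for the death ligand TRAIL, went from 9.47, 9.46, 9.43 and 9.43 to 8.75, 8.75, 8.71 and 8.68 (-0.72 ± 0.027). The list holds genes that promote death and genes that oppose it, among them MCL1 above, so its count has no single sense.

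Nutrient and redox genes were mixed. Of 29 autophagy and lysosome genes, 6 rose (20.7%) and 8 fell (27.6%), where 12% and 15.3% of all genes did. MAP1LC3B, which encodes the autophagosome protein LC3B, went from 10.998, 10.93, 10.91 and 10.92 to 11.38, 11.46, 11.38 and 11.42, a rise of 0.47 ± 0.029 against 0.96 with DMSO (-0.49 ± 0.041, adjusted p = 2.6e-06). GLA, a lysosomal galactosidase, fell by 0.28 ± 0.033 and WIPI1, an early autophagy factor, by 0.29 ± 0.034. Of 17 NRF2 targets, 6 rose (35.3%) and 8 fell (47.1%), with a median of -0.02, against 6 and 2 with DMSO. The difference of responses was called for 7, all lower under PD98059, where 2.83% of all genes were lower. TXNRD1, thioredoxin reductase, rose by 0.40 ± 0.023 against 0.66, and NFE2L2, which encodes NRF2, by 0.36 ± 0.033 against 0.40. SLC7A11, also on this list, is a target of ATF4 as well. Of 7 genes tied to the glucose sensors MondoA and ChREBP, 6 rose and 0 fell, and 4 rose without the array that stood apart. ARRDC4, an arrestin domain protein, went from 7.89, 7.86, 7.64 and 7.76 to 9.47, 9.55, 9.31 and 9.48 (1.67 ± 0.059, 3.18-fold), and its paralog TXNIP, which restrains glucose uptake, from 9.87, 9.85, 9.75 and 9.80 to 10.76, 10.88, 10.75 and 10.83 (0.99 ± 0.039). Both separated the media on every array.

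Of 24 glycolysis and hypoxia-inducible genes, 18 fell (75.0%) and 3 rose (12.5%, near the 12% of all genes), with a median of -0.17. NDRG1 went from 9.44, 9.48, 9.37 and 9.43 to 8.34, 8.25, 8.43 and 8.37, a fall of 1.08 against 0.63 with DMSO, so it fell further with the inhibitor (-0.45 ± 0.054, adjusted p = 0.000101). HK2, the hexokinase that starts glycolysis in many tumour cells, rose from 9.11, 9.11, 8.98 and 9.03 to 9.95, 10.10, 10.06 and 9.97 (0.96 ± 0.045), and the 2 other members that rose were VEGFA and SLC2A1. Of 13 gluconeogenic genes and FOXO targets, 4 rose and 2 fell (15.4%, at the 15.3% of all genes), and 1 fell when any 1 of 6 arrays was left out: replicates 1 and 2 in complete medium, 1 and 3 without histidine, and with DMSO replicate 4 in complete medium and 2 without histidine. FOXO1 rose by 0.55 ± 0.027 against 0.34 with DMSO, and FOXO3 by 0.49 ± 0.034 against 0.78, and the responses of these related factors differed in opposite directions (0.21 ± 0.038 and -0.29 ± 0.047). PCK1, the cytosolic carboxykinase, fell by 0.32 ± 0.034, which is the reverse of PCK2. IGFBP1, a secreted binding protein of insulin-like growth factors, named because its responses differed, was at 0.01 under PD98059 and rose by 0.90 with DMSO (-0.89 ± 0.16, adjusted p = 0.00246).

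Hepatocyte genes shifted modestly. Of 13 hepatocyte transcription factors, 6 rose and 2 fell (15.4%, near the 15.3% of all genes), with a median of 0.10. With DMSO 5 rose and 5 fell. The difference of responses was called for 8, 7 of them higher under PD98059, where 2.91% of all genes were higher. NR0B2, which encodes the repressor SHP, went from 9.10, 9.21, 9.10 and 9.17 to 9.72, 9.96, 10.08 and 10.08 (0.81 ± 0.068 against 0.33 with DMSO), ONECUT2 rose by 0.36 ± 0.033 and PROX1 by 0.26 ± 0.024. With DMSO the group means of NR0B2 were 10.08 in complete medium and 10.42 without histidine. ONECUT1, also called HNF6, fell by 0.17 ± 0.036 against 0.61 with DMSO (0.44 ± 0.050, adjusted p = 5.73e-05). Of 18 secreted hepatocyte proteins, 2 rose (11.1%, near the 12% of all genes) and 5 fell (27.8%, against 15.3% of all genes). APOA1 was at -0.33 ± 0.038, F10 at -0.17 ± 0.032 and SERPINC1, antithrombin, at 0.19 ± 0.033. Albumin, ALB, was at -0.07 and not called. Of 14 acute phase proteins, 4 rose (28.6%) and 5 fell (35.7%), and 7 fell without the array that stood apart. HP, haptoglobin, fell by 0.32 ± 0.033, FGA, a fibrinogen chain, by 0.23 ± 0.030, and ORM1 rose by 0.19 ± 0.030, beside its close copy ORM2 at 0.22. Of 12 genes of the bile acid and FGF19 axis, 1 rose and 2 fell, shares of 8.33% and 16.7% that lie near the 12% and 15.3% of all genes, and 4 fell without that array. SLC51B, a bile acid exporter subunit, went from 8.85, 8.92, 8.78 and 8.75 to 9.65, 9.63, 9.66 and 9.65 (0.82 ± 0.034), KLB, the FGF19 and FGF21 coreceptor, from 10.85, 10.84, 10.82 and 10.79 to 10.22, 10.07, 9.89 and 10.01 (-0.78 ± 0.049), and BAAT, which conjugates bile acids, fell by 0.25 ± 0.060. Of 13 drug metabolism genes, 4 rose and 4 fell (30.8% each). AHR, the aryl hydrocarbon receptor, rose by 0.63 ± 0.043, while CYP3A5 and CYP3A4, which are similar in sequence, were at -0.42 ± 0.049 and -0.22 ± 0.026. Of 17 clock genes, 7 rose (41.2%) and 2 fell (11.8%, near the 15.3% of all genes), and 9 rose and 3 fell without the array that stood apart. PER2 went from 8.57, 8.56, 8.50 and 8.52 to 9.39, 9.45, 9.44 and 9.44 (0.89 ± 0.030), and NR1D1 and NR1D2, the REV-ERB repressors, rose by 0.52 ± 0.034 and 0.39 ± 0.038.

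Cytokine and NF-kB genes rose in 8 of 19 and fell in 0 (median 0.09), against 14 and 0 with DMSO. For 6 members the responses were called different, all lower under PD98059, and for 8, all lower, without the array that stood apart. TNFAIP3, the NF-kB inhibitor A20, went from 9.37, 9.32, 9.21 and 9.21 to 10.11, 10.24, 10.14 and 10.20 (0.89 ± 0.046) and ICAM1, an adhesion molecule, from 9.79, 9.88, 9.75 and 9.75 to 10.35, 10.59, 10.57 and 10.54 (0.72 ± 0.049). CXCL8, which encodes interleukin 8, went from 6.06, 5.98, 5.93 and 5.95 to 6.62, 6.68, 6.52 and 6.52, a rise of 0.60 ± 0.061 against 2.12 with DMSO, so its responses differed by -1.52 ± 0.086 (adjusted p = 3.21e-08). CCL20 did not follow CXCL8: its rise was 1.81 against 1.44 with DMSO, a difference of 0.37 ± 0.12 that was not called (adjusted p = 0.108). Of 14 secreted stress factors and inhibins, 5 rose and 2 fell (14.3%, near the 15.3% of all genes). The lower count was 3 without the array that stood apart and 1 without replicate 2 or 3 in complete medium or replicate 2 without histidine. INHBE, an activin subunit made by hepatocytes, went from 8.61, 8.54, 8.44 and 8.51 to 9.92, 10.02, 9.97 and 10.04 (1.47 ± 0.055 against 1.97 with DMSO), GDF15, a stress hormone, from 11.77, 11.84, 11.80 and 11.77 to 12.70, 12.85, 12.92 and 12.86 (1.03 ± 0.039), and FST, which binds activins, rose by 0.65 ± 0.045.

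YAP and TEAD targets rose in 11 of 12 and fell in 0 (median 0.26), the list with the largest share of rising members after the snoRNA hosts and the amino acid regulators. CCN2, a matricellular protein, went from 10.32, 10.36, 10.27 and 10.31 to 11.49, 11.71, 11.68 and 11.66 (1.32 ± 0.047, 2.5-fold) and AJUBA, a scaffold protein, from 11.28, 11.39, 11.34 and 11.35 to 11.96, 12.13, 12.08 and 12.10 (0.73 ± 0.033). CCN2 and ANKRD1 rose more with the inhibitor, by 0.52 ± 0.067 and 0.35 ± 0.061 beyond the rise with DMSO (adjusted p = 0.000165 and 0.00246), while CCN1, a relative of CCN2 named for this contrast, rose less, by 0.63 against 1.29 (-0.66 ± 0.060). The group means of CCN2 in complete medium and without histidine were 10.32 and 11.63 under PD98059, below 11.38 and 12.18 with DMSO. Those of ANKRD1 were 9.34 and 11.15, below 10.38 and 11.84. These differences in level between the arms were not tested. Of 12 WNT feedback genes and beta-catenin targets, 5 rose and 3 fell. LGR5, the R-spondin receptor, went from 11.31, 11.21, 11.23 and 11.25 to 11.83, 11.93, 11.72 and 11.86 (0.58 ± 0.036 against 0.22), NKD1, a feedback inhibitor, from 11.10, 11.11, 11.05 and 11.10 to 11.50, 11.47, 11.58 and 11.50 (0.43 ± 0.029 against 0.12), and 4 members, these 2 with TBX3 and RNF43, had responses called higher under PD98059 with none lower. GLUL, another target in liver, fell in both arms (-0.46 and -0.47), and AXIN2, a widely used readout, was at -0.05 and not called, and at -0.07 (adjusted p = 0.0274) without the array that stood apart.

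Set against the response with DMSO, which shares no array with this one, the response to depletion under PD98059 differed for 1289 genes (5.74%). The response, without histidine minus complete medium, was higher under PD98059 for 654 (2.91%) and lower for 635 (2.83%), whatever the levels of the genes. Without the array that stood apart the count was 3145. All 147 genes that rose at least 1.5-fold under PD98059 also rose with DMSO, and all 70 that fell so far also fell with DMSO. Among the 147 the response was called smaller under PD98059 for 58, larger for 18 and not different for 71, with medians of 0.79 and 0.96 with DMSO. Among the 70 it was called smaller for 5, larger for 3 and not different for 62, with medians of -0.71 and -0.80. These genes were picked by their value under PD98059, so the medians describe them and test nothing.

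The genes with the surest differences named a few further members. Higher under PD98059, besides ETV5, ETV4 and ONECUT1, were BAMBI, a pseudoreceptor that dampens TGF-beta signalling, which went from 8.91, 8.90, 8.86 and 8.85 to 9.66, 9.74, 9.73 and 9.69 (0.82 ± 0.030 against 0.35), ABHD6, a lipid hydrolase (0.47 against 0.09), and the genes RNF43, FZD4 and ZMYM3, which fell less. RNF43, a ubiquitin ligase that removes WNT receptors, and FZD4, such a receptor, fell by 0.15 and 0.44 against 0.55 and 0.83 with DMSO. Lower under PD98059, besides EGR1, MCL1, LIF and CXCL8, was MXD1, a partner of MAX that opposes MYC. MXD1 went from 9.24, 9.20, 9.11 and 9.16 to 9.78, 9.80, 9.76 and 9.79, a rise of 0.60 ± 0.030 against 1.53 with DMSO (-0.92 ± 0.043, adjusted p = 5.34e-09). SDC4, a heparan sulfate proteoglycan, went from 11.48, 11.51, 11.45 and 11.46 to 11.75, 11.81, 11.80 and 11.80, a rise of 0.32 ± 0.025 against 1.01 with DMSO. Both genes had no overlap between the media under PD98059.

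Opposite calls in the 2 arms were rare. They were made for 68 genes, 32 that rose under PD98059 and fell with DMSO and 36 the other way round. The difference of responses was called for all 68, which opposite calls in the same fit make nearly certain, so it is no separate support. ARG2, the mitochondrial arginase, was at 9.64, 9.63, 9.57 and 9.62 in complete medium and at 9.38, 9.41, 9.23 and 9.43 without histidine under PD98059, a fall of 0.25 ± 0.037, and rose by 0.33 with DMSO (-0.59 ± 0.052, adjusted p = 4.64e-06). HBP1, a repressor of cell cycle genes, fell by 0.19 ± 0.049 and rose by 0.24 with DMSO. RHOF, PPARD and TIMP1, an inhibitor of metalloproteinases, fell by 0.27, 0.20 and 0.19 and rose by 0.10, 0.11 and 0.13. In the other direction BMP4, a growth factor of the TGF-beta family, went from 10.54, 10.46, 10.49 and 10.53 to 10.78, 10.67, 10.71 and 10.66 under PD98059, a rise of 0.20 ± 0.028, and fell by 0.12 with DMSO (0.32 ± 0.039, adjusted p = 0.000101). ZNF189, TBCCD1, SCRN3 and CCDC138 rose by 0.20, 0.18, 0.20 and 0.23 and fell by 0.14, 0.16, 0.18 and 0.26. The arrays of SCRN3 and of CCDC138 overlapped between the media, and replicate 3 was the lowest without histidine in both. Each of these 10 opposite pairs was below 1.5-fold in both arms.

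**Figure D4:**
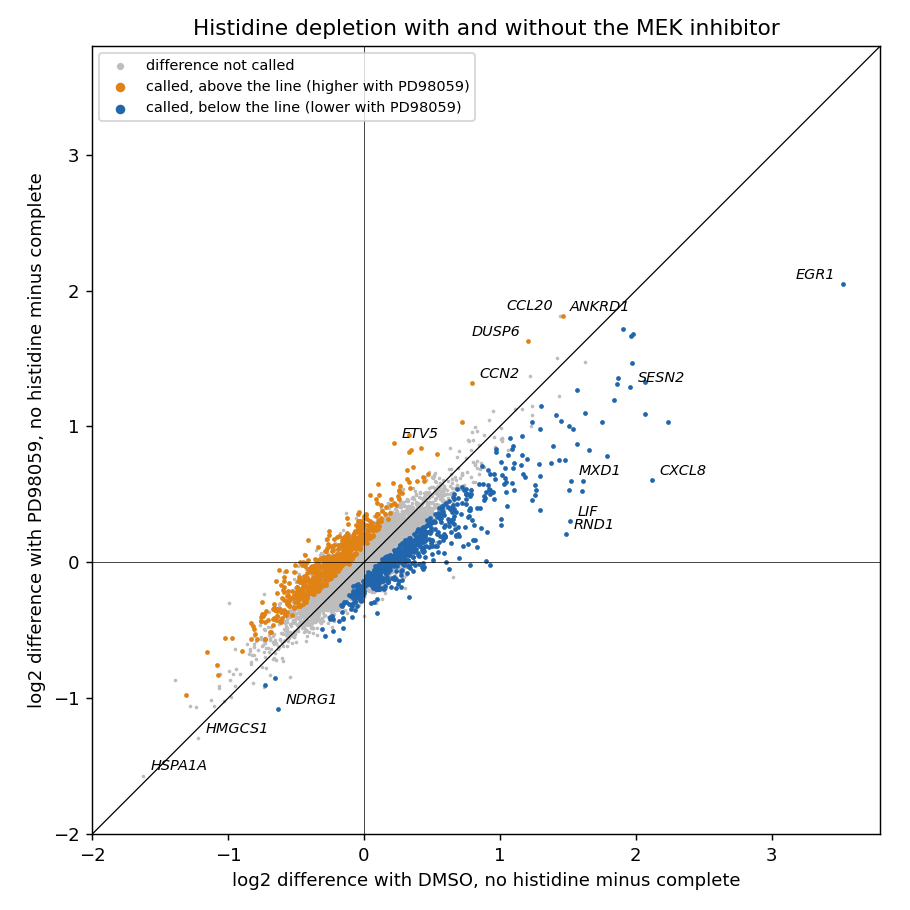
Log2 difference without histidine minus complete medium with PD98059 (vertical axis) against the same difference with DMSO (horizontal axis) for 22464 genes, each from 4 arrays against 4. Orange and blue points are the 654 and 635 genes whose responses were called different, and the line marks equal responses, with EGR1 at 2.05 and 3.52 and HMGCS1 at -1.29 and -1.22.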

How the data were processed

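RNA of 16 HepG2 cultures, 100 ng each, was measured on 1 array per culture. The deposited values are log2 expression values that the authors made with RMA in Partek 6.6 on genome build hg19, per the submitters' processing notes. Their background step and other settings are not given in the sources used here. The deposited table has 70459 rows. GEO's platform annotation gave 1 symbol for 23780 rows, several for 1543, and does not list 45136. Of 479 symbols with more than 1 row the brightest row was kept, leaving 22464 genes. RefSeq (GRCh38.p14) served for names and promoter windows only.

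In R 4.3.3, limma 3.58.1 fitted 1 mean per group over all 16 arrays, which share 1 estimate of the spread, and p-values were adjusted by Benjamini-Hochberg over all genes. The difference of responses is the interaction term. Group and replicate came from the titles. The labels call the incubations independent, and the replicate numbers were not used as pairs. The number of arrays, 4 per group, limits the precision, and how far a value lies above background is not known.

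Of the 873 genes on 41 lists, 755 were measured. The genes and lists were chosen with earlier results of these data known. Named by rule were the 12 highest and 12 lowest differences under PD98059 (called, arrays not overlapping, higher mean above the median of all values, without uncharacterised or small RNA loci), up to 3 called members of each list with the lowest adjusted p, the 8 genes each way with the lowest p for the difference of responses among genes called for both, the 5 each way with the largest of opposite changes, and MAP2K1 and MAP2K2.

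On simulated data made from these arrays, with 20 draws of 200 changed genes among 22464, the fit of depletion under PD98059 called 61% of genes shifted by 0.2 and 94.8% of those shifted by 0.4 (log2), and 4.85% of its calls were false. The noise was drawn independently for each gene and array, with no array that stood apart. Far fewer genes were changed than the 6148 called in the data. These rates therefore check the fit and need not hold for these arrays. Alternatives covered the replicate block, the samples in the fit, the variance model, dim genes, 2 normalizations, the rows of a symbol, every row, array weights, the threshold, and leaving out each array.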

Additional observations from a re-analysis of the deposited data

Results flagged for a closer look

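Single arrays stood apart from the 3 others of their group, by Dixon's test, in 16 of 310 groups of named genes, and chance flags about 1 in 20. In complete medium with PD98059 these were SLCO4C1 (replicate 1 at 9.67, the others at 9.42 to 9.45), WARS1 (replicate 3 at 10.15, the others at 10.19 to 10.20), TXNRD1 (replicate 4 at 9.45, the others at 9.49 to 9.50) and PSMC4 (replicate 2 at 12.20, the others at 12.14 to 12.15). Without histidine, replicate 3 was the low array for 6 genes, DDIT3 (8.56, the others at 8.72 to 8.76), CENPI (8.04, the others at 8.35 to 8.42), STARD4 (7.87, the others at 8.18 to 8.20), FABP1 (7.11, the others at 7.27 to 7.28), CYP3A5 (5.83, the others at 5.99 or higher) and SCRN3 (7.44, the others at 7.62 to 7.63). The other arrays without histidine were those of EIF4EBP2 (replicate 1 at 11.37, the others at 11.32 to 11.32), SNHG17 (replicate 1 at 9.96, the others at 10.25 to 10.30), KLF10 (replicate 1 at 9.45, the others at 9.56 to 9.57), CCND1 (replicate 4 at 11.55, the others at 11.62 to 11.63), SLC51B (replicate 2 at 9.63, the others at 9.65 to 9.66) and PER2 (replicate 1 at 9.39, the others at 9.44 to 9.45). Replicate 3 also had the largest deviation over all genes, and all but SCRN3 of the genes named here had arrays that did not overlap between the media.

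The difference of responses was called for 63 named genes, each tested by the interaction term. Values are the response under PD98059 minus that with DMSO on the log2 scale, followed by both responses. Among genes that rose in both arms, the rise was smaller under PD98059 for CXCL8 (-1.52, from 0.60 against 2.12), EGR1 (-1.47, from 2.05 against 3.52), RND1 (-1.28, from 0.21 against 1.49), LIF (-1.21, from 0.30 against 1.52), MXD1 (-0.92, from 0.60 against 1.53), MCL1 (-0.78, from 0.46 against 1.24), ARHGEF2 (-0.74, from 0.53 against 1.27), SDC4 (-0.69, from 0.32 against 1.01), SESN2 (-0.67, from 1.29 against 1.96), PMAIP1 (-0.53, from 1.10 against 1.63), DDIT4 (-0.52, from 1.36 against 1.87), NR1D1 (-0.52, from 0.52 against 1.05), INHBE (-0.51, from 1.47 against 1.97), MAP1LC3B (-0.49, from 0.47 against 0.96), TXNIP (-0.31, from 0.99 against 1.30), ARRDC4 (-0.30, from 1.67 against 1.96), ASNS (-0.30, from 1.68 against 1.98), FOXO3 (-0.29, from 0.49 against 0.78), TXNRD1 (-0.27, from 0.40 against 0.66), SLC7A1 (-0.24, from 0.93 against 1.16), GDF15 (-0.20, from 1.03 against 1.23), PDGFRB (-0.20, from 0.29 against 0.49), SLC7A11 (-0.19, from 1.71 against 1.91), PCK2 (-0.16, from 0.92 against 1.08), MARS1 (-0.15, from 0.71 against 0.87) and EPHA2 (-0.15, from 1.15 against 1.30). It was larger under PD98059 for ETV5 (0.66, from 0.88 against 0.22), CCN2 (0.52, from 1.32 against 0.80), NR0B2 (0.48, from 0.81 against 0.33), BAMBI (0.48, from 0.82 against 0.35), ETV4 (0.47, from 0.57 against 0.11), DUSP6 (0.42, from 1.63 against 1.20), LGR5 (0.37, from 0.58 against 0.22), ABHD6 (0.37, from 0.47 against 0.09), ANKRD1 (0.35, from 1.81 against 1.46), NKD1 (0.30, from 0.43 against 0.12), XBP1 (0.21, from 0.60 against 0.39), FOXO1 (0.21, from 0.55 against 0.34), PROX1 (0.18, from 0.26 against 0.08) and EIF5 (0.14, from 0.24 against 0.11).

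Among genes with a lower value without histidine in both arms, the fall was smaller under PD98059 for ONECUT1 (0.44, from -0.17 against -0.61), RNF43 (0.40, from -0.15 against -0.55), ZMYM3 (0.39, from -0.20 against -0.60), FZD4 (0.38, from -0.44 against -0.83), CENPI (0.33, from -0.98 against -1.31), DDB2 (0.28, from -0.42 against -0.70), HP (0.22, from -0.32 against -0.55), MCM2 (0.18, from -0.51 against -0.68) and MCM4 (0.15, from -0.32 against -0.47). It was larger under PD98059 for NDRG1 (-0.45, from -1.08 against -0.63), GLA (-0.25, from -0.28 against -0.03), PCK1 (-0.23, from -0.32 against -0.09) and ACSS2 (-0.18, from -0.90 against -0.73), where the change with DMSO was not called for GLA and PCK1. Opposite changes, higher under PD98059, were those of CCDC138 (0.49, from 0.23 against -0.26), SCRN3 (0.38, from 0.20 against -0.18), ZNF189 (0.34, from 0.20 against -0.14), TBCCD1 (0.33, from 0.18 against -0.16) and BMP4 (0.32, from 0.20 against -0.12). Opposite changes, lower under PD98059, were those of ARG2 (-0.59, from -0.25 against 0.33), HBP1 (-0.43, from -0.19 against 0.24), RHOF (-0.37, from -0.27 against 0.10), PPARD (-0.31, from -0.20 against 0.11) and TIMP1 (-0.31, from -0.19 against 0.13). The largest differences were those of CXCL8, EGR1, RND1 and LIF, all toward a smaller rise under PD98059. The 8 genes of the naming rule in each direction were picked for this difference.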

How the results depend on the processing

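Depletion under PD98059 gave 6148 calls, and 5494 to 6830 when any 1 of the 16 arrays was left out, the most without replicate 3 of the cells without histidine. With every row of the table tested in place of named genes there were 9719 calls, 4291 higher and 5428 lower, with 288 higher and 195 lower by at least 1.5-fold, and 13633 calls with DMSO, since more features were tested. The difference of responses, called for 1289 genes, was the least stable count. It was 782 with arrays shifted to the same median, 4615 with array weights, 592 at an adjusted p under 0.01, and 916 to 3145 with 1 array left out, 916 without replicate 4 in complete medium with PD98059 and 3145 without replicate 3 without histidine. The cause was not tested. With the replicate number as a replicate block there were 6456 calls under PD98059, 8048 with DMSO and 1492 for the difference. Same-numbered arrays deviated together with correlations of 0.462, 0.093, 0.514 and 0.006 under PD98059 and of 0.098, -0.297, -0.201 and 0.120 with DMSO. Under PD98059 replicates 1, 2 and 3, and with DMSO replicate 4, correlated best with their own number, but not every pair exceeded 0.1 and no label ties the numbers to a shared day or batch, so they were not used as pairs. The block cost ACSS2 its difference of responses (adjusted p = 0.0518). The 155 named genes, except MAP2K1 and MAP2K2, were picked among called genes, most for a low p or a large difference. Keeping a call was thus likely from the choice and says little about the other calls. Of the 155, 151 kept their side of the threshold for depletion under PD98059 in every setting run. The 4 that changed were HNMT, GRB2 and CCDC138, which lost the call, and MAP2K2, which gained it with array weights (-0.10, adjusted p = 0.024) or without the array that stood apart. CCDC138 lost it when only the 8 arrays of the comparison were fitted (adjusted p = 0.0632). Of 63 differences of responses called for named genes, 49 were called in every setting, and those of ACSS2, ARRDC4, ASNS, CENPI, EIF5, EPHA2, GDF15, HP, MARS1, MCM2, MCM4, PCK2, SLC7A1 and SLC7A11 were lost in at least 1. No named value changed sign with its call. Of 82 list counts, 57 stayed within 1.5-fold in all settings. For 22 of 41 list medians no setting gave a shift large enough to be flagged, though every median shifted slightly with the processing. The median of all genes was 0.0032, 0.0007 after the median shift and 0.0048 after quantile normalization. The WNT median of 0.0002 became -0.0023 after the median shift, and the median of gluconeogenic and FOXO genes went from 0.0068 to -0.0252 without replicate 3. Genes at the dim end may lie near background, which these values do not show.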
